A study of Mus musculus with 9 samples.

Results

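Myc and its partner network were examined in MC38 cells, a mouse colorectal cancer line, as 9 transcripts chosen by gene symbol. These were Myc, its dimerization partner Max, the Max-binding repressors Mxd1, Mxd3, Mxd4, Mxi1 and Mnt, the Max-binding regulator Mga, and Odc1, a classical Myc target that encodes ornithine decarboxylase. All 9 were found among the 16509 genes of the deposited table, and all 9 were among the 11949 genes that passed the filter on low counts.

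RNA was sequenced from 9 libraries, 3 in each of 3 groups of cultured MC38 cells. Ctrl cells carried the label DMSO, while the methods of the study name PBS as the vehicle. Cu-Cys cells received a complex of copper and cystine, and Cadict cells received a nanodrug in which that complex is combined with glucose oxidase (GOx) and GE11, a peptide that binds EGFR. Dose and time of these libraries are not given in the sources used here, and the labels do not say whether the 3 libraries of a group came from separate cultures. The methods of the study describe in vitro work in general as repeated independently, with n counting biological replicates, so p-values are read here as measuring the spread between these libraries.

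Myc is a basic helix-loop-helix leucine zipper transcription factor that binds DNA as a heterodimer with Max, mainly at E-boxes, and drives genes of ribosome production, nucleotide synthesis and cell growth. The Mxd proteins, Mxi1 and Mnt compete for Max and recruit Sin3 or NCoR corepressors to the same motif, and Mga links Max to a Polycomb complex. In colorectal cancer, loss of APC raises Wnt signalling and with it MYC transcription, and ODC1, the first enzyme of polyamine synthesis, is a target of MYC in that tissue.

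The total expected count per library ranged from 17905771 to 18293056. A common scale was set by TMM, which gave factors of 1.26 to 1.27 in Ctrl, 1.21 in Cu-Cys and 0.640 to 0.665 in Cadict libraries, and counts per unit of that common total are called TMM-scaled CPM. Changing the scale from TMM to library totals moved the median gene by -0.95 (log2) in Cadict against Ctrl and by -0.88 against Cu-Cys. In Cu-Cys against Ctrl the move was only -0.07. By library totals the median gene then stood at -1.08, -0.98 and -0.06, in the same order. Directions in both Cadict comparisons are therefore relative to the scale, and each gene's percentile among all tested log2 fold changes is given where it helps. Cadict replicate 2 stood apart from its group, with squared differences from replicates 1 and 3 of 17.6 and 27.8 times the counting variance, compared with 4.13 between replicates 1 and 3. Defining epithelial markers were near 0 in this line, with 0 to 4 counts of Epcam, 0 to 2 of Krt18 and 1 to 17 of Krt8, whereas Cdh1 had 65 to 152 and Vim had 22159 to 47652 counts. Egfr, the target of GE11, had 0 to 5 counts. Listed leukocyte, macrophage and endothelial markers (Ptprc, Cd79a, Lyz2 and Pecam1) summed to 19 to 46 counts in any library. In bulk RNA, fewer cells and less RNA per cell cannot be told apart.

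The promoter stretches of members that hold the Myc-Max recognition motif are shown as matches of sequence only. Binding at them was not measured. RefSeq windows (build GRCm38.p6) from 250 bases before to 50 after the transcription start were given for 8 members, with no entry used for Myc. The E-box CACGTG, which reads the same on both strands, was present in the windows of 3 members, Max, Mxd4 and Mnt. Among all genes with a window, 8.09% held the motif, and among all windows 7.15%. The motif began 3 bases before the start of Max, 219 before that of Mxd4 and 123 before that of Mnt. Each stretch of 60 bases is written 5′ to 3′ on the gene's strand, with the E-box in capitals, for Max at chr12:76962219-76962278 (minus strand), Mxd4 at chr5:34187897-34187956 (minus strand) and Mnt at chr11:74830774-74830833 (plus strand).
Max: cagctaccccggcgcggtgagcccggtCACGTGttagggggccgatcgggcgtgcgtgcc
Mxd4: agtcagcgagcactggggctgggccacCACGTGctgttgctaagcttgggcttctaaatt
Mnt: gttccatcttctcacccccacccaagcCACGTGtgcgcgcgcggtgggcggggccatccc

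The 250 bases before the starts of Odc1 and Mxd3 are shown because these members had the largest changes of either sign under Cadict. Neither window held CACGTG, which says only that these letters are absent there. Odc1 lies on the plus strand at chr12:17544623-17544872 and Mxd3 on the minus strand at chr13:55329732-55329981.
Odc1: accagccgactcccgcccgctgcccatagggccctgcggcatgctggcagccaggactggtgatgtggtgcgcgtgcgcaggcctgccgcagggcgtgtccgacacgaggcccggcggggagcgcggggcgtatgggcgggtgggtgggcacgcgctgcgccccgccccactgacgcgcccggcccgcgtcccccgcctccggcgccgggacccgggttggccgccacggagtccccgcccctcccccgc
Mxd3: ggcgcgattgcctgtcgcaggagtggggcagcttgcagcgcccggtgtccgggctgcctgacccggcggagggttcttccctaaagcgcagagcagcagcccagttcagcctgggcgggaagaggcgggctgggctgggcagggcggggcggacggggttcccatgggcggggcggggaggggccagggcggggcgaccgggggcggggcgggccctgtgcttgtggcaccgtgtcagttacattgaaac

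In the vehicle-labelled Ctrl cells, the members spanned a wide range of levels per transcript length. Mean FPKM in Ctrl cells was 229.2 ± 11.1 (SD, n = 3) for Odc1, 76.2 ± 0.936 for Myc and 37.6 ± 1.40 for Max. Among the repressors, Mxi1 was the most abundant at 30.1 FPKM, followed by Mxd3 at 16.1 and Mnt at 10.03. Mga followed at 8.53, and Mxd4 at 3.91 and Mxd1 at 1.01 FPKM closed the order, in which no neighbours overlapped between libraries. In Cu-Cys cells the order was the same except that Mxd3, at 8.19 FPKM, came after Mnt and Mga, with libraries that overlapped those of Mga at 8.50. In Cadict cells Max, at 28.0 ± 0.297 FPKM, exceeded Myc, at 18.5 ± 3.20 FPKM, in every library. The lowest 3 members in Cadict cells, Mxd4 at 1.51, Mxd1 at 1.20 and Mxd3 at 1.18 FPKM, were not separated from their neighbours in the order, and neither were Mga at 4.48 and Mnt at 3.96.

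Under Cadict, 4 of the 9 members passed the threshold of the study's methods, a fold change of at least 2 with an adjusted p of at most 0.001 (edgeR's quasi-likelihood test, Benjamini-Hochberg adjustment over all tested genes). By TMM, Myc and Mxd3 fell and Mxd1 and Odc1 rose against Ctrl, with Mxd1 no longer passing by library totals, and the share of all tested genes past the same threshold was 47.8%. Taking any fold at an adjusted p of 0.05 or less, 3 members were higher, where 40.6% of all genes were, and 4 were lower, where 47.1% of all genes were. The members' share was thus near that of the transcriptome. The same 4 members passed the stricter threshold against Cu-Cys, where 42.2% of all genes did, and again 3 members were higher (40.3% of all genes) and 4 lower (45.6%). Each pair of comparisons shares a group of libraries. Without Cadict replicate 2, 3 members were again higher and 4 lower against Ctrl. With library totals as the scale, 1 member was higher, 7 were lower and 1 did not pass in either Cadict comparison. Of all genes, 18.1% were then higher and 73.1% lower against Ctrl, and 17.3% and 72.0% against Cu-Cys, so most members shared the direction of most genes.

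Under Cu-Cys alone, 0 members passed the stricter threshold against Ctrl by edgeR's quasi-likelihood test, and 0 by DESeq2 or by limma on log2(FPKM + 1), while 4 had an unadjusted p under 0.05 in the edgeR fit. Of all genes, 1.64% passed that threshold. Taking any fold at an adjusted p of 0.05 or less, Max and Odc1 were higher (22.6% of all genes were) and Mxd3 was lower (22.4%), which made 3 of 9. With library totals as the scale, 2 were higher and 2 lower, where 15.4% and 28.9% of all genes were. This fit shares its estimate of spread with the more variable Cadict libraries. In a fit of the Ctrl and Cu-Cys libraries alone, chosen after seeing the data, 6 members passed, with Myc at a log2 fold change of 0.13 (adjusted p = 0.00548), Mnt at 0.15 (adjusted p = 0.0158) and Mxi1 at -0.14 (adjusted p = 0.0137) added, and 28.7% of the 11728 genes tested there were higher and 28.7% lower.

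**Figure D1:**
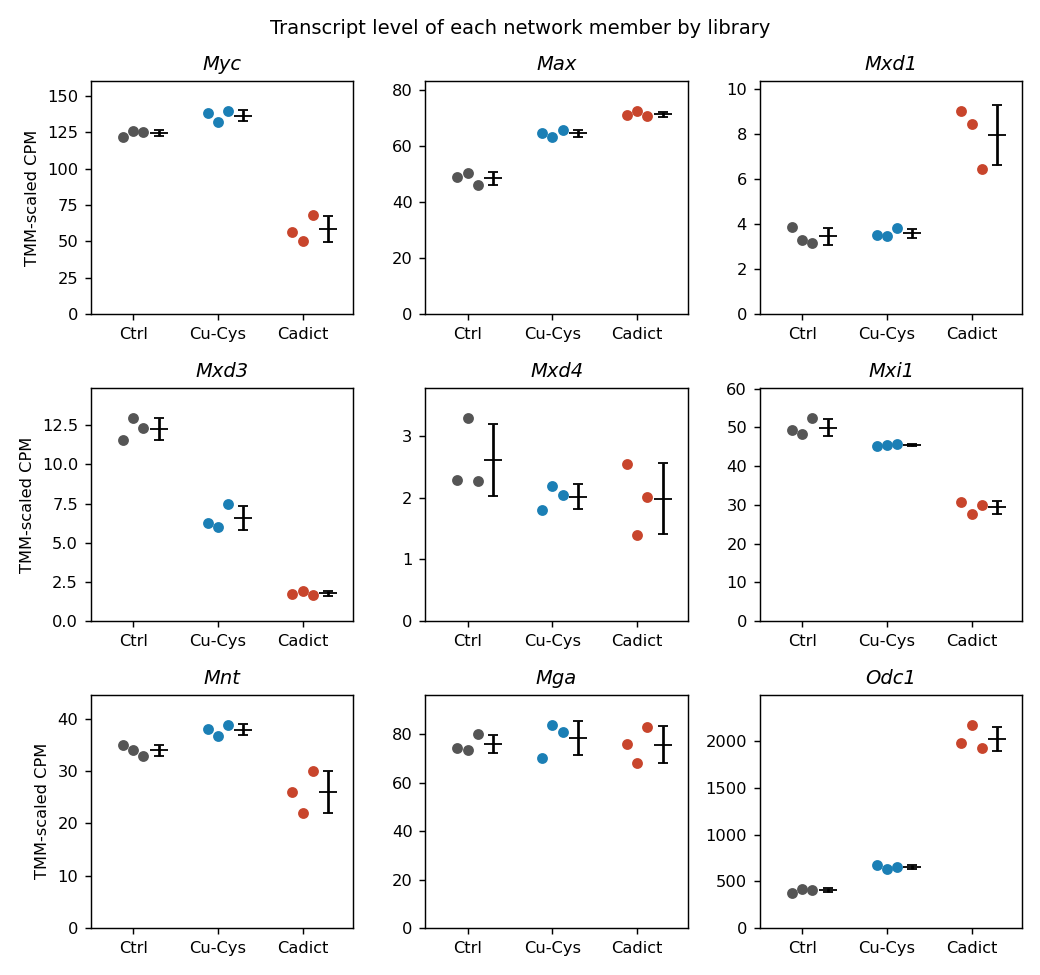
TMM-scaled CPM (y axis, from 0, a separate scale per gene) of the 9 members in each library, with 3 points per group and the mean ± SD as a black bar. Odc1 was lowest in Ctrl and highest in Cadict, and Mxd3 the reverse, without overlap between groups. Myc was lowest in Cadict at 50.4 to 68.4. The position of Max in Cadict depends on the scale, since it fell below Ctrl with library totals.

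Myc, the activator of the network, had TMM-scaled CPM of 122, 126 and 125 in the Ctrl libraries, 138, 132 and 139 in the Cu-Cys libraries, and 56.8, 50.4 and 68.4 in the Cadict libraries. All Cadict libraries lay below every other library, and all Cu-Cys libraries lay slightly above Ctrl. Myc fell by 1.09 on the log2 scale in Cadict against Ctrl (SE 0.08, adjusted p = 2.7e-09), a 2.12-fold drop. Against Cu-Cys it fell by 1.22 (SE 0.08, adjusted p = 7.2e-10). The fall against Ctrl missed the 2-fold limit with DESeq2 size factors, at -0.97 (adjusted p = 1.0e-08), and without Cadict replicate 2, at -0.99 (adjusted p = 4.0e-14), which left 3 members past that threshold. Its percentile among all log2 fold changes against Ctrl was 26.8. Cu-Cys cells differed from Ctrl by 0.13 (log2), with a 95% interval from -0.02 to 0.29 and an adjusted p of 0.149. Its 2 relatives were scarcely detected. Mycn did not exceed 0.0461 and Mycl did not exceed 0.174 TMM-scaled CPM in any library, both below the limit that a count of 0 allows in the same groups (3 counts, or 0.130 to 0.138 TMM-scaled CPM in Ctrl and Cu-Cys and 0.252 to 0.261 in Cadict libraries, counting error only).

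Max, a dimerization partner of Myc and of the repressors, had 49.2, 50.4 and 46.0 TMM-scaled CPM in Ctrl, 64.8, 63.4 and 65.9 in Cu-Cys and 71.2, 72.4 and 70.7 in Cadict libraries. The 3 groups did not overlap on this scale. In Cu-Cys against Ctrl, Max rose by 0.42 on the log2 scale (SE 0.05, adjusted p = 2.1e-05), at percentile 92.7 of all genes. In Cadict against Ctrl its log2 fold change was 0.56 (SE 0.05, adjusted p = 9.0e-08) by TMM but -0.40 (adjusted p = 5.6e-06) by library totals, and against Cu-Cys 0.14 (adjusted p = 0.0221) by TMM but -0.74 (adjusted p = 2.1e-09) by library totals. The call against Cu-Cys was also lost without Cu-Cys replicate 2, at 0.12 (adjusted p = 0.0789). Its percentile against Ctrl was 68.4, a position above the median transcript under either scale.

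Because the scale cancels within a library, the balance of Myc to Max was taken as the ratio of their FPKM. It was 1.97, 1.99 and 2.13 in Ctrl, 1.71, 1.64 and 1.69 in Cu-Cys and 0.638, 0.562 and 0.779 in Cadict libraries. Myc transcripts thus outnumbered Max transcripts per length in all Ctrl and Cu-Cys libraries and were fewer in all Cadict libraries. The mean log2 ratio differed by -1.63 between Cadict and Ctrl, or 3.10-fold, by -1.36 between Cadict and Cu-Cys and by -0.27 between Cu-Cys and Ctrl. Groups did not overlap in any of the 3 pairs, and each exact two-sided permutation test gave p = 0.1 (adjusted p = 0.1 over the 9 ratio tests made), the smallest that 3 against 3 libraries allow.

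The repressors did not move together. Mxd3, a Mxd protein linked to S phase in proliferating cells, had 11.5, 12.9 and 12.3 TMM-scaled CPM in Ctrl, 6.23, 6.04 and 7.48 in Cu-Cys and 1.70, 1.92 and 1.68 in Cadict libraries. Its 3 groups were well apart, and the Cadict values rest on 20 to 22 counts per library. Mxd3 fell by 0.90 on the log2 scale in Cu-Cys against Ctrl (SE 0.10, adjusted p = 4.8e-06), at percentile 3.57 of all genes. It fell by 2.79 in Cadict against Ctrl (SE 0.15, adjusted p = 4.6e-11), a 6.93-fold drop at percentile 4.95, and by 1.90 in Cadict against Cu-Cys (adjusted p = 2.4e-08). In the GENCODE M21 annotation 4.43% of its exonic bases overlap Prelid1 on the other strand, and the strand used in counting is not stated.

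Mxd1, the Mxd protein that is induced when many cell types differentiate, had 3.89, 3.29 and 3.18 TMM-scaled CPM in Ctrl, 3.51, 3.48 and 3.83 in Cu-Cys and 9.01, 8.45 and 6.47 in Cadict libraries. Ctrl and Cu-Cys overlapped and all Cadict libraries were higher on this scale. Its log2 fold change in Cadict against Ctrl was 1.20 (SE 0.14, adjusted p = 1.0e-06) by TMM but 0.25 (adjusted p = 0.107) by library totals, and by limma on log2(TPM + 1) it was -0.064 (adjusted p = 0.508). Against Cu-Cys it was 1.14 (adjusted p = 2.1e-06) by TMM and 0.26 (adjusted p = 0.1) by library totals. Raw counts lay between 73 and 90 in Ctrl and between 77 and 106 in Cadict libraries, so the gain is one relative to other transcripts, at percentile 82.8. Between Cu-Cys and Ctrl the difference was 0.06 (log2), with a 95% interval from -0.26 to 0.38.

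Mxi1, a relative of the Mxd proteins and the most abundant of these repressors, had 49.4, 48.2 and 52.4 TMM-scaled CPM in Ctrl, 45.3, 45.5 and 45.7 in Cu-Cys and 30.8, 27.5 and 30.0 in Cadict libraries. It fell by 0.76 on the log2 scale in Cadict against Ctrl (SE 0.06, adjusted p = 1.1e-08) and by 0.63 against Cu-Cys (adjusted p = 1.4e-07), with no overlap. Cu-Cys against Ctrl gave -0.14 (adjusted p = 0.0616), a value that passed in 7 of the alternatives. Mnt, the broadly expressed antagonist that occupies Max in resting and growing cells alike, had 35.0, 34.0 and 32.9 TMM-scaled CPM in Ctrl, 38.1, 36.7 and 38.8 in Cu-Cys and 25.9, 22.0 and 30.1 in Cadict libraries. It fell by 0.39 in Cadict against Ctrl (SE 0.09, adjusted p = 6.4e-04) and by 0.54 against Cu-Cys (adjusted p = 2.5e-05). Their percentiles among all log2 fold changes against Ctrl were 34.1 and 43.3, below the median gene.

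Mxd4, another Mxd repressor, was low throughout, with 2.29, 3.29 and 2.27 TMM-scaled CPM in Ctrl, 1.80, 2.19 and 2.05 in Cu-Cys and 2.55, 1.39 and 2.02 in Cadict libraries. Its log2 fold change in Cadict against Ctrl was -0.39 (95% interval -0.90 to 0.11, adjusted p = 0.129), and groups overlapped. Without Cadict replicate 1 it passed at -0.61 (adjusted p = 0.0489), whereas without Cadict replicate 2 it was -0.20 (adjusted p = 0.446) and without Ctrl replicate 2 also -0.20 (adjusted p = 0.442). By library totals it passed at -1.34 (adjusted p = 4.4e-05), and with DESeq2 size factors it was -0.27 (adjusted p = 0.285). The 16 to 76 counts per library left wide intervals, as in Cu-Cys against Ctrl, where the interval ran from -0.81 to 0.06. Mga, which joins Max to a Polycomb complex, had 74.4, 73.4 and 80.1 TMM-scaled CPM in Ctrl, 70.4, 83.8 and 80.8 in Cu-Cys and 76.1, 68.0 and 83.2 in Cadict libraries. All 3 groups overlapped, and its log2 fold change in Cadict against Ctrl was -0.00 with an interval from -0.17 to 0.16, at percentile 53.6, against -0.96 (adjusted p = 1.4e-08) by library totals. For Cu-Cys against Ctrl the interval of Mga was -0.12 to 0.21.

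**Figure D2:**
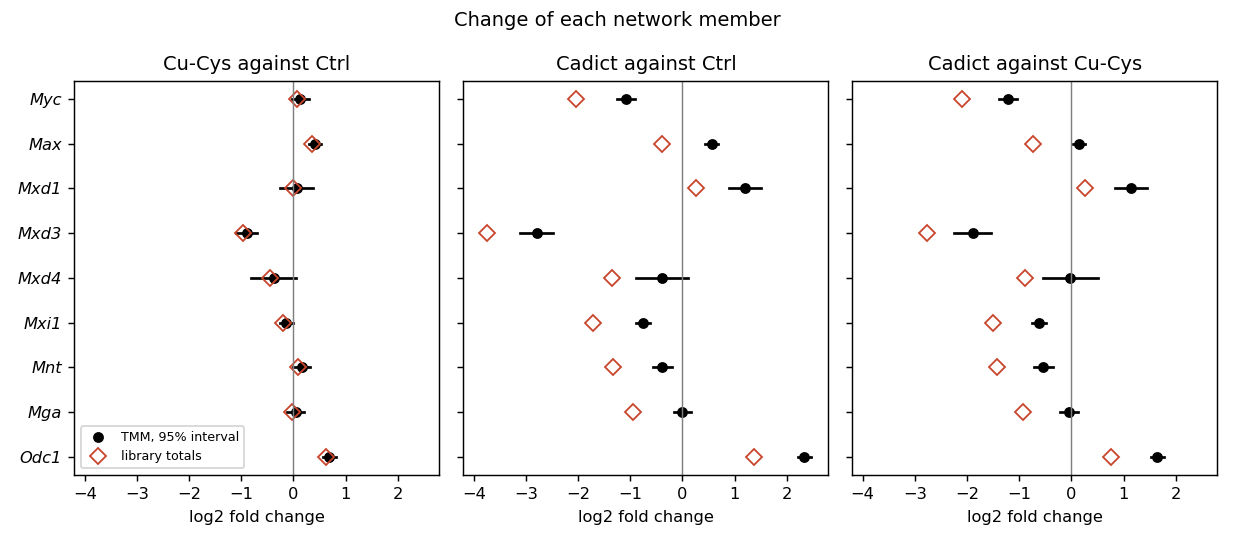
Log2 fold change (x axis) of each member in 3 comparisons, as filled points with 95% intervals under TMM and as open diamonds under library totals. In both Cadict comparisons the diamonds lie to the left of the points, the sign of Max turns from positive to negative, and Myc, Mxd3, Mxi1 and Mnt stay negative and Odc1 positive under both scales.

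The balance of Myc to its 5 Max-binding repressors (the summed FPKM of Mxd1, Mxd3, Mxd4, Mxi1 and Mnt) also avoids the scale. It was 1.250, 1.245 and 1.246 in Ctrl, 1.69, 1.63 and 1.62 in Cu-Cys and 1.00, 1.01 and 1.242 in Cadict libraries. Cu-Cys stood above both other groups, and Cadict replicate 3 lay just under the lowest Ctrl library. The mean log2 difference was 0.40 for Cu-Cys against Ctrl, -0.21 for Cadict against Ctrl and -0.61 for Cadict against Cu-Cys, each with an exact permutation p of 0.1, the smallest possible. With expected counts not divided by length, the first 2 of these differences were 0.23 and -0.49.

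**Figure D3:**
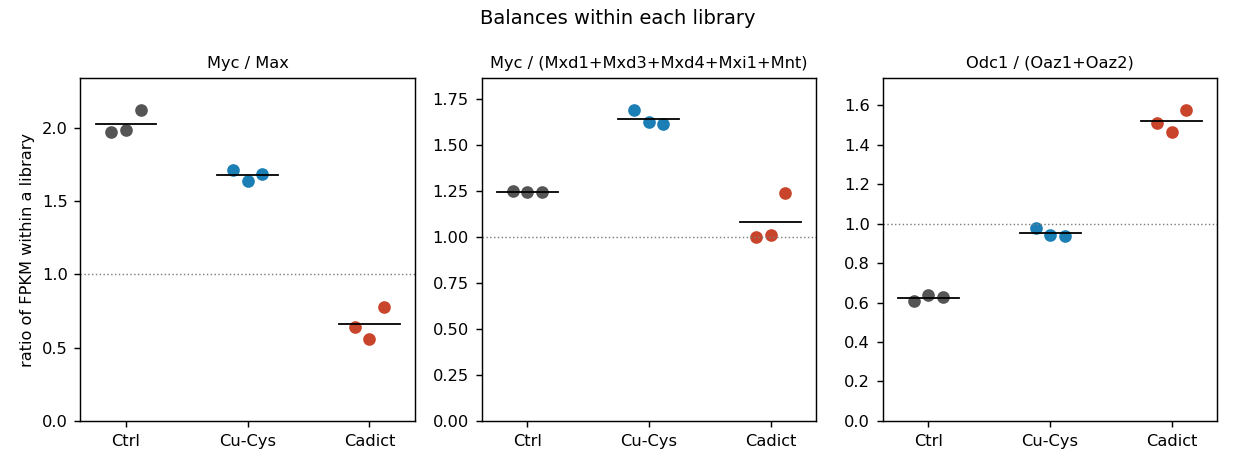
Ratio of FPKM within each library (y axis, from 0) for Myc over Max, Myc over the 5 summed repressors and Odc1 over the summed antizymes, with 3 points and the mean as a line per group and a dotted line at 1. Myc over Max fell below 1 only in the Cadict libraries, at 0.562 to 0.779, while Odc1 over antizymes exceeded 1 only there, at 1.47 to 1.58.

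Odc1 rose in both treatments. It had 378, 418 and 408 TMM-scaled CPM in Ctrl, 669, 627 and 648 in Cu-Cys and 1986, 2172 and 1923 in Cadict libraries, with no overlap between groups. Its log2 fold change was 0.69 in Cu-Cys against Ctrl (SE 0.06, adjusted p = 4.7e-07) and 2.34 in Cadict against Ctrl (SE 0.06, adjusted p = 1.0e-14), which are 1.61-fold and 5.05-fold. Its percentiles among all genes were 98.0 and 95.4, respectively. Against Cu-Cys, Cadict was 1.65 higher (SE 0.06, adjusted p = 5.5e-13), and by library totals it remained higher against Ctrl at 1.38 (adjusted p = 3.5e-13). In GENCODE M21, 24.3% of the 50-base stretches of Odc1 transcripts are shared with 16 other genes, 15 of them pseudogenes, so part of its count could be divided among copies.

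Odc1 acts in a pathway with its own inhibitors. The antizymes encoded by Oaz1 and Oaz2 bind ornithine decarboxylase and send it to the proteasome, and the antizyme inhibitors encoded by Azin1 and Azin2 block the antizymes. Of 14 genes of the polyamine pathway other than Odc1, 13 were tested. In Cadict against Ctrl, 9 were higher, 3 lower and 1 did not pass, where 40.6% of all genes were higher and 47.1% lower. The median log2 fold change of the 13 was 0.60, compared with -0.13 for all genes. By library totals the split was 4 higher, 7 lower and 2 not passed, beside 18.1% higher and 73.1% lower among all genes on that scale. Cu-Cys gave 6 higher, 2 lower and 5 not passed against Ctrl, with a median of 0.12. Of all genes, 22.6% were higher and 22.4% lower there, with a median of 0.01.

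Among the regulators, Oaz1 rose by 1.16 on the log2 scale in Cadict against Ctrl (adjusted p = 6.4e-11) by TMM, from 192 ± 4.6 to 429 ± 43 TMM-scaled CPM (SD, n = 3). By library totals Oaz1 was 0.21. Oaz2 was at 0.02 (adjusted p = 0.82) by TMM and -0.94 by library totals. Azin1 rose by 1.73 (adjusted p = 1.8e-13) by TMM and 0.78 by library totals, and the much rarer Azin2 fell by 2.11 (adjusted p = 2.0e-08) by TMM. Azin2 also fell by 1.69 in Cu-Cys against Ctrl (adjusted p = 5.9e-07), from 6.16 to 1.91 TMM-scaled CPM. In Cadict against Cu-Cys it was -0.42 (adjusted p = 0.0926) by TMM. The ratio of Odc1 to the summed antizymes, in FPKM, was 0.606, 0.640 and 0.626 in Ctrl, 0.976, 0.944 and 0.936 in Cu-Cys and 1.51, 1.47 and 1.58 in Cadict libraries. Odc1 transcripts were thus fewer per length than those of its inhibitors in Ctrl and Cu-Cys cells and more numerous in Cadict cells. The mean log2 difference was 1.28 for Cadict against Ctrl and 0.61 for Cu-Cys against Ctrl (exact permutation p = 0.1 for each, the smallest possible).

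Downstream of ornithine decarboxylase, synthesis and breakdown genes had different values. Amd1 and the aminopropyl transferases Srm and Sms, which build spermidine and spermine, had log2 fold changes of 0.60, 0.38 and 0.35 in Cadict against Ctrl by TMM, and of -0.36, -0.57 and -0.61 by library totals. Srm was higher in Cu-Cys cells than in either other group, at 0.75 against Ctrl (adjusted p = 9.8e-07), with Cadict -0.37 against Cu-Cys (adjusted p = 1.2e-04). Sat1, the rate-limiting acetyltransferase of polyamine catabolism, rose by 3.33 in Cadict against Ctrl (adjusted p = 1.1e-14), from 59.2 ± 2.3 to 594 ± 78 TMM-scaled CPM. Smox, the spermine oxidase, was 0.99 (adjusted p = 5.2e-08) by TMM and 0.04 by library totals, and Paox, the acetylpolyamine oxidase, fell by 1.03 (adjusted p = 1.2e-05). Sat2 fell by 2.85 (adjusted p = 1.1e-04) from a mean of 1.07 TMM-scaled CPM. Dhps, which uses spermidine to make the hypusine of eIF5A, rose by 2.29 (adjusted p = 2.9e-13), and Dohh, which completes it, was 1.01 by TMM and 0.05 by library totals.

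**Figure D4:**
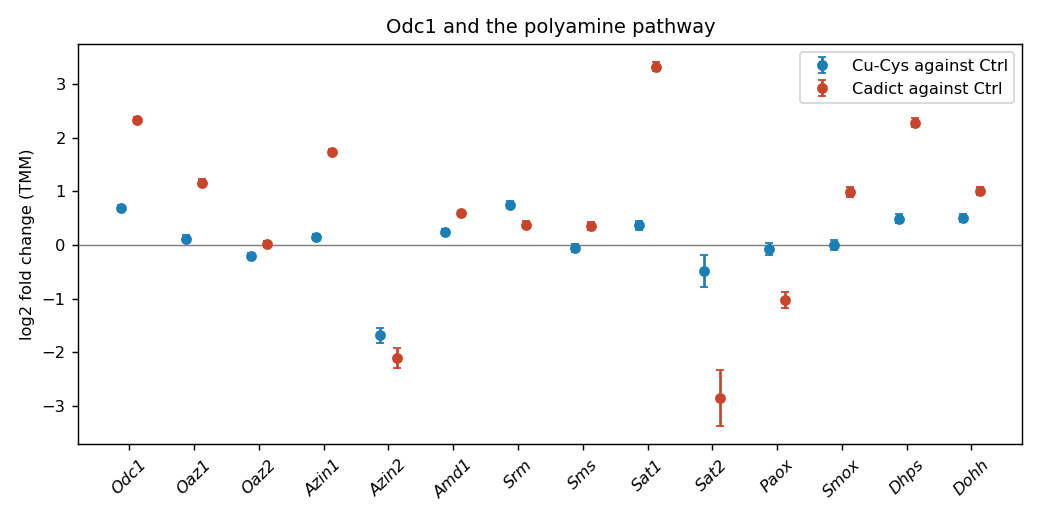
Log2 fold change under TMM (y axis, ± SE) of Odc1 and the 13 tested polyamine genes, for Cu-Cys against Ctrl (blue) and Cadict against Ctrl (red). Odc1 and Sat1 rose at 2.34 and 3.33 and Azin2 fell by 1.69 and 2.11, while Amd1, Srm, Sms and Oaz2 turned negative in Cadict under library totals.

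Genes that Myc is known to induce were mostly higher in both treatments. Of 30 such genes, all tested, 26 were higher, 0 lower and 4 did not pass in Cu-Cys against Ctrl by edgeR. Of all genes, 22.6% were higher and 22.4% lower there. The median log2 fold change of the 30 was 0.43, beside 0.01 for all genes. At an unadjusted p under 0.05, 0 were lower in that fit, 0 were lower by DESeq2 and 1 was by limma on log2(FPKM + 1). At library totals the counts were 25 higher, 1 lower and 4 not passed, where 15.4% of all genes were higher and 28.9% lower. In Cadict against Ctrl, in which Myc itself fell, 22 were higher, 7 lower and 1 did not pass, with a median of 1.38 beside -0.13. Of all genes, 40.6% were higher and 47.1% lower there. By library totals 17 of the 30 were higher, 12 lower and 1 did not pass, beside the 18.1% and 73.1% of all genes. Leaving out Cadict replicate 2 gave the same counts of 22, 7 and 1. Set against Cu-Cys, Cadict gave 20 higher and 9 lower (median 0.87) by TMM but 13 higher and 14 lower (median -0.02) by library totals. Of all genes, 40.3% were higher and 45.6% lower there by TMM, and 17.3% and 72.0% by library totals. The list includes Srm, which is also a polyamine gene. The largest changes by the naming rule were Hspe1, a mitochondrial co-chaperonin, at 3.78, the ribosome assembly factor Mrto4 at 2.81, the snoRNP core protein Nop58 at 2.66 and mitochondrial serine hydroxymethyltransferase Shmt2 at 2.57 (adjusted p from 3.8e-16 for Nop58 to 3.6e-14 for Mrto4). Nop58 went from 250.2 ± 2.8 TMM-scaled CPM in Ctrl to 325 ± 12 in Cu-Cys and 1580 ± 29.7 in Cadict cells.

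The induced genes parted from each other under Cadict. Polr1b, a core subunit of RNA polymerase I, rose by 0.46 on the log2 scale in Cu-Cys cells (adjusted p = 5.8e-05) and fell by 2.48 in Cadict cells (adjusted p = 2.7e-13), both against Ctrl. Tfrc, the transferrin receptor, likewise rose by 0.63 (adjusted p = 8.5e-07) and fell by 0.64 (adjusted p = 2.5e-08), and Cad, which starts pyrimidine synthesis, rose by 0.24 (adjusted p = 0.0046) and fell by 0.42 (adjusted p = 7.7e-06). The rise of Cad under Cu-Cys no longer passed by library totals, at 0.17 (adjusted p = 0.0508). Those of Polr1b and Tfrc still passed, at 0.39 (adjusted p = 2.4e-04) and 0.56 (adjusted p = 4.3e-06). Polr1b, Tfrc and Cad were singled out after their values were seen.

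Of 6 genes that Myc is known to repress, 5 were tested, and in Cadict against Ctrl 3 were higher and 2 lower, with a median of 1.98. Of all genes, 40.6% were higher and 47.1% lower there, with a median of -0.13. The growth arrest genes Gadd45a and Cdkn1a rose by 4.55 (adjusted p = 1.2e-16) and 2.85 (adjusted p = 3.7e-16), and Ndrg1, a stress-responsive gene, rose by 1.98 (adjusted p = 7.4e-14). The cyclin-dependent kinase inhibitor Cdkn1b fell by 2.39 (adjusted p = 4.7e-13). Against Ctrl, Cu-Cys gave 1 higher, 3 lower and 1 not passed, where 22.6% of all genes were higher and 22.4% lower. In that comparison Gadd45a and Ndrg1 had the opposite sign to Cadict, at -0.42 (adjusted p = 9.9e-04) and -0.50 (adjusted p = 1.7e-05).

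**Figure D5:**
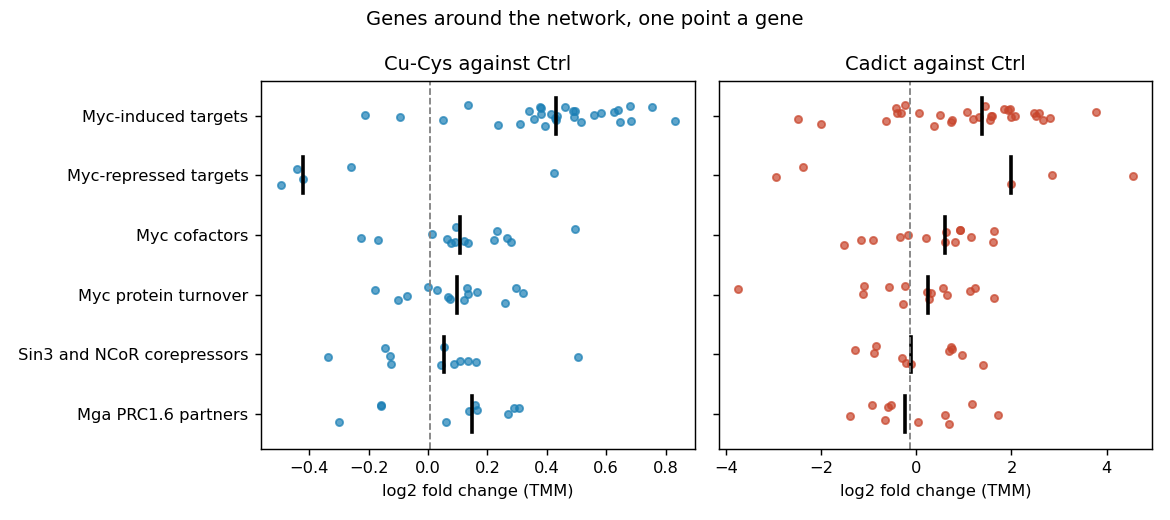
Log2 fold change under TMM (x axis, with a separate scale in each panel) of single genes in 6 lists around the network, with the list median as a black bar and the median of all tested genes as a dashed line. Myc-induced genes had medians of 0.43 in Cu-Cys and 1.38 in Cadict. Under library totals the medians of Myc cofactors and of turnover genes in Cadict were -0.35 and -0.71, below 0 but above the -1.08 of all tested genes.

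Cofactors of Myc were split under Cadict, with 9 of 14 higher and 5 lower against Ctrl by TMM (median 0.61) and 3 higher, 9 lower and 2 not passed by library totals. Of all genes, 40.6% were higher and 47.1% lower by TMM, and 18.1% and 73.1% by library totals. Ccnt1, the cyclin of the elongation kinase P-TEFb, rose by 1.63 (adjusted p = 2.3e-12) and Ruvbl2, an ATPase of chromatin complexes, by 1.604 (adjusted p = 1.2e-12) by TMM. By library totals Ccnt1 was 0.68 and Ruvbl2 0.65. The acetyltransferase complex members Kat2a and Trrap fell by 1.52 (adjusted p = 9.0e-13) and 1.16 (adjusted p = 2.6e-11). Under Cu-Cys, 5 cofactors were higher, 2 lower and 7 did not pass, where 22.6% of all genes were higher and 22.4% lower. Among 14 genes that control the stability of Myc protein, 8 rose and 6 fell under Cadict by TMM, compared with 3 and 11 by library totals. The shares of all genes given above stand beside these counts. Plk1, a mitotic kinase, fell by 3.74 (adjusted p = 1.1e-14), while the deubiquitinase gene Usp36 rose by 1.24 (adjusted p = 3.8e-12) and the phosphatase subunit Ppp2r5a by 1.13 (adjusted p = 3.0e-12) by TMM. By library totals Usp36 was 0.28 and Ppp2r5a 0.18. Under Cu-Cys, 3 of the 14 were higher, 1 was lower and 10 did not pass, a split that was 6, 0 and 8 with DESeq2 size factors and 3, 2 and 9 with library totals. Of all genes, 25.9% were higher and 20.1% lower there with DESeq2 size factors, and 15.4% and 28.9% with library totals.

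The corepressors used by Mxd proteins, Mxi1 and Mnt showed no common direction. Of 11 Sin3 and NCoR genes, 5 were higher, 5 lower and 1 did not pass in Cadict against Ctrl, with a median of -0.11 beside -0.13 for all genes. The split was 5, 3 and 3 with DESeq2 size factors and 1, 9 and 1 with library totals. Of all genes, 40.6% were higher and 47.1% lower by TMM, 43.7% and 43.8% with DESeq2 size factors, and 18.1% and 73.1% with library totals. Sin3a, a scaffold that binds the Mxd proteins, fell by 1.29 (adjusted p = 6.2e-12) by TMM. Its relative Sin3b, added after its values were seen, was 0.69 (adjusted p = 1.5e-07) by TMM and -0.27 by library totals. The histone chaperone Rbbp4 rose by 1.40 (adjusted p = 1.2e-13) by TMM and 0.44 by library totals. The deacetylase gene Hdac2 was 0.96 by TMM and 0.00 by library totals. Under Cu-Cys, 3 were higher, 2 lower and 6 did not pass (4, 1 and 6 with DESeq2 size factors, 1, 4 and 6 with library totals). Among all genes 22.6% were higher and 22.4% lower by TMM, 25.9% and 20.1% with DESeq2 size factors, and 15.4% and 28.9% with library totals. Of 10 Polycomb partners of Mga, 4 were higher, 5 lower and 1 did not pass in Cadict against Ctrl (median -0.25), among them Rybp at 1.73 and Yaf2 at 1.17, 2 related adaptors of the complex, and L3mbtl2 at -1.39 and Tfdp2 at -0.93. By library totals 2 were higher and 8 lower, with Rybp at 0.77 and Yaf2 at 0.21. Under Cu-Cys, 4 were higher, 3 lower and 3 did not pass, and 6, 1 and 3 with DESeq2 size factors. The shares of all genes given above for each scale stand beside these counts too.

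The parallel Mlx branch, in which Mlx binds glucose-sensing factors in place of Max, was represented by 2 tested genes. Mlx rose by 0.29 in Cu-Cys (adjusted p = 0.0012) and by 1.72 in Cadict cells (adjusted p = 2.2e-13) against Ctrl, from 21.4 ± 0.67 to 26.2 ± 0.72 and 70.9 ± 2.1 TMM-scaled CPM. By library totals Mlx was 0.22 and 0.77, respectively. Its partner Mlxip fell by 0.64 in Cadict against Ctrl (adjusted p = 3.9e-05) and was at 0.06 in Cu-Cys (adjusted p = 0.65).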

How the data were processed

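RNA from 9 MC38 libraries was measured. In one table the authors deposited, per gene and library, expected counts (estimated read counts, not normalized), FPKM and TPM. Per the labels, the processing notes name HISAT2 2.1.0, Bowtie2 2.3.4.3 and RSEM 1.3.1 with builds GRCh38.p13 and GRCm39, without roles; the strand of counting is not given in the sources used here. The labels name a column kit and DNA nanoballs, the study's methods TRIzol and an Illumina instrument. Columns labelled CC were taken as Cu-Cys by initials and CCGE as Cadict from its components. A further 9 per-sample columns and 12 average columns were not used.

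Expected counts were rounded and fitted in R 4.3.3 with edgeR 4.0.16 (filterByExpr by group, TMM, one quasi-likelihood model of all 3 groups, Benjamini-Hochberg adjustment over 11949 genes). SE is the log2 fold change over the root of the F statistic. FPKM ratios were compared by exact two-sided permutation tests. In data simulated for Cadict against Ctrl, 199 of 200 changed genes and 0 unchanged genes of 11797 were called. The simulation used the same fixed spread for all genes and libraries and left all other genes unchanged. It therefore checks the code only, and cannot speak to the scale between libraries or to the outlying Cadict replicate 2. Alternatives used other scalings and filters, DESeq2 1.42.0, limma 3.58.1 on log2(FPKM + 1), log2(FPKM + 0.1) and log2(TPM + 1), a replicate block, each library left out and, chosen after seeing the data, only the 2 groups compared. Libraries were treated as unpaired. Residuals of same-numbered libraries correlated at -0.143 to 0.135 over 9706 genes, which shows no sign of pairing but cannot exclude it with 3 libraries per group.

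Members and gene lists were chosen with earlier results of these data known. All members were named, with the 4 tested genes per list that had the largest absolute log2 fold change in Cadict against Ctrl at an average of at least 10 TMM-scaled CPM, any detected polyamine or Mlx branch gene, and the 5 genes most like Myc and most like Odc1; 2 genes that this rule names are not reported here. Promoter windows came from RefSeq on GRCm38.p6, a build other than the one named for the counts. The total count per library limits precision for low genes. The 95% intervals include the spread between libraries, and the floors of 3 counts cover counting error only.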

Additional observations from a re-analysis of the deposited data

How the results depend on the processing

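The scale between libraries was the main limit. Library totals gave Max -0.40 in Cadict against Ctrl and -0.74 against Cu-Cys, limma on log2(FPKM + 1) -0.41 and -0.74, on log2(TPM + 1) -0.76 and -1.01, and on log2(FPKM + 0.1) -0.43 and -0.76, all opposite in sign to TMM. Mxd1 was -0.064 and -0.016 on log2(TPM + 1). FPKM and TPM were not rescaled between libraries, and whether total RNA or its composition changed was not tested. The number of members called in Cadict against Ctrl was 4, with 3 to 4 when single libraries were left out, 3 with DESeq2 size factors or DESeq2, 6 with library totals and 7 with limma on log2(TPM + 1), while all genes past that threshold went from 5707 to 6976 and 6864 under the last 2. In Cadict against Ctrl, Myc kept its direction and an adjusted p of at most 0.05 under every alternative run, at -2.36 to -0.97, as did Mxd3 at -3.74 to -2.67 and Odc1 at 1.03 to 2.46. Max against Cu-Cys did not pass with at least 10 counts in every library (0.10, adjusted p = 0.0789) or with no filter (0.05, adjusted p = 0.455). In Cu-Cys against Ctrl the members at an adjusted p of at most 0.05 went from 3 to 6 without Cadict replicate 2 and to 5 without Cadict replicate 3 (54.9% and 49.0% of all genes passed then), and all genes past the stricter threshold from 196 to 119 with at least 10 counts in every library, 71 with limma on log2(FPKM + 1) and 117 on log2(TPM + 1). With a replicate block, 5685, 183 and 5019 genes and 4, 0 and 4 members were called for Cadict and Cu-Cys each against Ctrl and for Cadict against Cu-Cys, in this order, and no member's call changed. For Myc over the summed repressors, counts without length gave -0.49 for Cadict and 0.23 for Cu-Cys against Ctrl, and adding Mga -0.36 and 0.35. Odc1 over antizymes was 1.34 in Cadict against Ctrl with counts without length.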

Other observations

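Outside the lists, the genes whose pattern over the 9 libraries was most like that of Myc were found by the root mean square difference of log2 TMM-scaled CPM, centred on the Ctrl mean, among 8550 genes. Nearest were Snrnp200, a helicase of the spliceosome, at 0.0615, Sh3rf1 at 0.0620, the deubiquitinase gene Usp10 at 0.0645, the inositol kinase gene Ipmk at 0.0743 and Sephs1 at 0.0753. Snrnp200 was -1.10 in Cadict and 0.07 in Cu-Cys against Ctrl on the centred scale, compared with -1.10 in Cadict for Myc.

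For Odc1 the nearest were Gtf2h1, a subunit of transcription factor TFIIH, at 0.0574, the ferritin light chain gene Ftl1 at 0.0593, Utp14a, which acts in small ribosomal subunit assembly, at 0.0842, Fxyd5 at 0.0845 and Klrg2 at 0.0967. Ftl1 was 2.28 in Cadict and 0.73 in Cu-Cys against Ctrl, and Gtf2h1 was 2.32 and 0.65. These likenesses describe 9 libraries in 3 groups and say nothing of shared control.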
